A study of Homo sapiens with 10 samples.

Results

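The 9 genes described here are a set of receptor tyrosine kinases and their ligands, measured by RNA-seq in 4 lines derived from the human prostate cancer cell line PC3. They are the TAM receptors AXL and TYRO3 with the ligand GAS6, the collagen receptors DDR1 and DDR2, the vascular receptors KDR and TIE1, and the receptor PDGFRB with the ligand PDGFC. They were chosen by name, as every entry of the expression tables whose gene symbol was 1 of the 9. Each table listed 23170 gene entries, and 14 of them carried a member's symbol. The excess came from DDR1, which lies in the major histocompatibility region and was listed on 5 alternative haplotypes of chromosome 6 besides its main locus. Those 5 entries were at 0 in every table, so the main locus was used.

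PC3-Epi (2 samples) is a luciferase-positive subpopulation of PC3 with an epithelial phenotype and is the control by its label. PC3-EMT14 (3 samples) is 1 mesenchymal subpopulation, isolated from PC3-Epi after co-culture with macrophages derived from IL4-treated CD14+ monocytes. Lentiviral overexpression of the zinc-finger transcription factor OVOL1 in PC3-EMT14, from a purchased construct, gave PC3-EMT14-OVOL1 (3 samples). Lentiviral overexpression of OVOL2 in PC3-EMT14, from a construct the study cloned, gave PC3-EMT14-OVOL2 (2 samples). All 4 lines therefore descend from PC3-Epi, and both OVOL lines were compared with PC3-EMT14, not with cells carrying an empty vector. The tables gave 1 pooled value of FPKM per group, so no spread between samples can be shown and no difference below was tested. FPKM is fragments counted per kilobase of transcript, scaled here by the upper quartile of the fragment counts. The depth of the libraries is unknown from these values. In a bulk sample, fewer cells that express a gene and less RNA per cell cannot be told apart.

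Receptor tyrosine kinases span the cell membrane and phosphorylate tyrosines, most of them once a ligand binds. AXL and TYRO3 bind GAS6, a vitamin K-dependent protein, and AXL is widely associated with the mesenchymal state of carcinoma cells. DDR1 and DDR2 bind collagen instead of a soluble factor, and DDR1 is typical of epithelia whereas DDR2 is typical of mesenchymal cells. KDR (VEGFR2) is the main signalling receptor for VEGFA and TIE1 is a partner of the angiopoietin receptor TEK, and both are best known from endothelium. PDGFRB marks pericytes and fibroblasts, and PDGFC is a ligand of the PDGF receptors.

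The targeted genes were checked against the labels. OVOL1 stood at 11.3 FPKM in PC3-EMT14-OVOL1 and 0.0238 in PC3-EMT14, and OVOL2 stood at 831 FPKM in PC3-EMT14-OVOL2 and 0.370 in PC3-EMT14. PC3-Epi had 4.25 FPKM of OVOL1 and 9.91 of OVOL2, so the OVOL2 level of the transduced line was far above that of the epithelial line. Of 5 epithelial markers, 5 were at least 2-fold higher in PC3-Epi than in PC3-EMT14, 3 in PC3-EMT14-OVOL1 and 4 in PC3-EMT14-OVOL2. The epithelial cadherin CDH1 was at 50.6 FPKM in PC3-Epi against 1.00 in PC3-EMT14, at 16.2 in PC3-EMT14-OVOL1 and at 39.2 in PC3-EMT14-OVOL2. The EMT activator ZEB1 was at 0.130 FPKM in PC3-Epi against 7.59 in PC3-EMT14, at 4.25 in PC3-EMT14-OVOL1 and at 1.77 in PC3-EMT14-OVOL2. Of 4 mesenchymal markers, VIM and ZEB1 were at least 2-fold lower in PC3-Epi, none was with OVOL1, and VIM, ZEB1 and FN1 were with OVOL2.

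KDR and TIE1 were the members that lay on the same side of the threshold in both OVOL lines and in PC3-Epi, and AXL is the member most often discussed in EMT. The bases before the start of these 3 loci are given here in hg19, the build of the tables, each on the strand of its gene. Those of KDR and TIE1 end where the annotated gene begins. The AXL bases end at the start of its entry, and the annotated gene begins further on, at chr19:41725128. KDR is on the minus strand of chromosome 4 (chr4:55991763-55992012), TIE1 on the plus strand of chromosome 1 (chr1:43766414-43766652) and AXL on the plus strand of chromosome 19 (chr19:41724858-41725107). Capitals mark the E2-box core CAGGTG, which ZEB1 and SNAIL proteins bind, and the GC box GGGCGG, which SP1 binds, each on either strand.
KDR: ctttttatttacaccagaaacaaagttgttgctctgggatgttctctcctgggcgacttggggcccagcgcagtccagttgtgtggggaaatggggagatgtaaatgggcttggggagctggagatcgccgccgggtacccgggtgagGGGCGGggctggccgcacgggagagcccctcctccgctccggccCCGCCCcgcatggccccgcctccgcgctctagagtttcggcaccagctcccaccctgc
TIE1: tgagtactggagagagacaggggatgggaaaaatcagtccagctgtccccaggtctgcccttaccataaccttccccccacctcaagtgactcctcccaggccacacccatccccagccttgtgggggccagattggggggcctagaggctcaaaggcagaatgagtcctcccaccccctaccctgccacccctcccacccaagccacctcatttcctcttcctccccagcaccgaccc
AXL: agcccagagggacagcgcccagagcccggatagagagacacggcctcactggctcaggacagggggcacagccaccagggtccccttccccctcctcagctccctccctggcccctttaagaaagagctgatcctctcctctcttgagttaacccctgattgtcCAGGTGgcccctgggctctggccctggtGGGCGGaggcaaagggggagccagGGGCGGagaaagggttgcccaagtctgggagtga
The KDR window held 2 GC boxes and no E2-box core, and the TIE1 window held neither. The AXL window held 1 E2-box core, 86 to 81 bases before the start of its entry, and 2 GC boxes. The OVO core CCGTTA was in none of the windows of the 9 members. Other forms of this core that the study's OVOL2 consensus allows were not searched, nor were bases after the start. Over 14772 windows of 250 bases taken in the same way before the genes of the tables, 17.9% held the E2-box core, 2.64% the OVO core and 51.7% the GC box. Among the members, GAS6, DDR1 and PDGFC also held an E2-box core in their 250 bases, and each of these windows overlaps annotated exons. These matches are letters in a window and were not measured as binding. By GC content the KDR window had 65.2%, the AXL window 64.8% and the full 250 bases before TIE1 60.8%, against a median of 60.8% over all windows.

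To ask which members differ between the mesenchymal and the epithelial line, PC3-Epi was compared with PC3-EMT14. A gene was counted where 1 line had at least 2 times the FPKM of the other and the higher line had at least 1 FPKM. DDR1 was higher in PC3-Epi, KDR and TIE1 were lower, 4 members stayed within the threshold (AXL, TYRO3, GAS6 and PDGFC), and DDR2 and PDGFRB were under 1 FPKM. Over the 12441 genes that reached 1 FPKM, 7.37% were higher and 8.34% lower in PC3-Epi by the same rule. The median log2 ratio was -0.014 over all these genes and -0.19 over the 7 members that reached 1 FPKM. It was -0.68 over the 9 members, which include DDR2 and PDGFRB at values near 0.

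The same count was made for each OVOL line against PC3-EMT14. In PC3-EMT14-OVOL1, KDR and TIE1 were lower and no member was higher, against 2.43% of 12197 genes higher and 1.54% lower. In PC3-EMT14-OVOL2, KDR and TIE1 were again lower and no member was higher, against 4.42% of 12307 genes higher and 2.93% lower. Between the 2 OVOL lines no member passed the threshold, where 1.9% of 12188 genes were higher in PC3-EMT14-OVOL2 and 1.17% lower. The median log2 ratio of the members that reached 1 FPKM was 0.10 with OVOL1 (7 members), 0.14 with OVOL2 (7 members) and 0.047 between the OVOL lines (6 members). Over the 9 members it was 0.10, 0.27 and 0.07, where 0.27 is the ratio of DDR2, a gene near 0. All 3 comparisons with PC3-EMT14 rest on the same PC3-EMT14 libraries, so the repeated naming of KDR and TIE1 is not independent. TIE1 reached 1 FPKM only in PC3-EMT14, so it could enter these counts and medians only by being lower elsewhere.

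**Figure D1:**
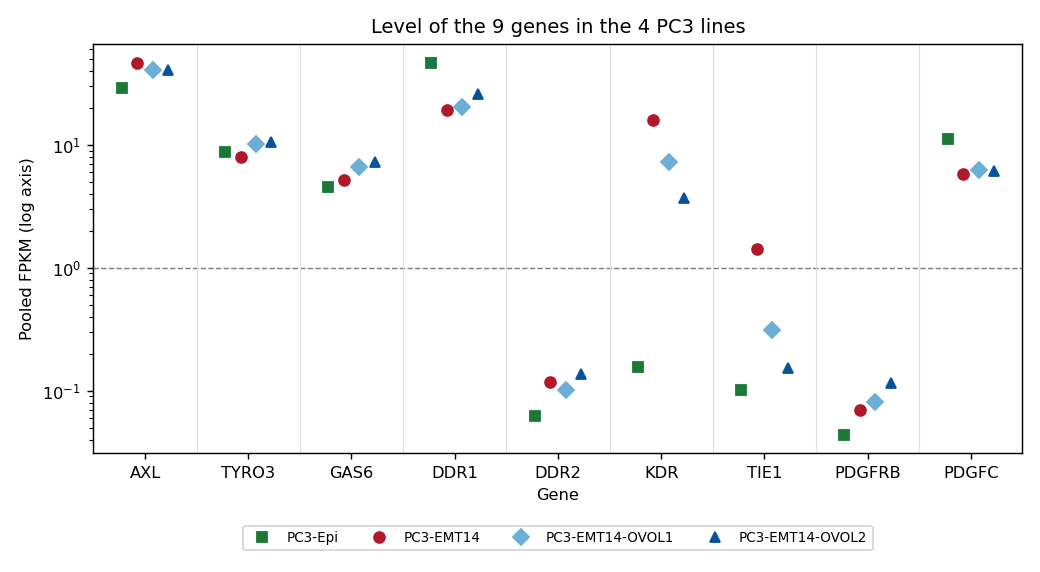
Pooled FPKM (log axis) of the 9 genes in the 4 lines, 1 point per line with no error bar because the tables give 1 value per group; the dashed line is 1 FPKM. KDR spans 16.1 in PC3-EMT14 to 0.156 in PC3-Epi with both OVOL lines between them, while DDR2 and PDGFRB lie under the line in all 4.

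AXL (chr19:41725108-41767671) was the most abundant member in PC3-EMT14. Its pooled FPKM was 46.8 in PC3-EMT14 and 29.2 in PC3-Epi, a log2 ratio of -0.68 that did not reach 2-fold. It was 40.8 in PC3-EMT14-OVOL1 against 45.8 in PC3-EMT14 of the same table, and 41.1 in PC3-EMT14-OVOL2 against 45.3. AXL mRNA thus stayed high in all 4 lines, and its level in the OVOL lines was nearer to PC3-EMT14 than to PC3-Epi. Among 57 human receptor tyrosine kinases it ranked 5 in PC3-Epi and 3 in PC3-EMT14 and each OVOL line.

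TYRO3 (chr15:41851220-41871536), the other expressed TAM receptor, had 7.96 FPKM in PC3-EMT14 and 8.71 in PC3-Epi. It stood at 10.2 in PC3-EMT14-OVOL1 (log2 ratio 0.39) and 10.6 in PC3-EMT14-OVOL2 (log2 ratio 0.46). GAS6 (chr13:114523522-114567046), their ligand, had 5.21 FPKM in PC3-EMT14, 4.56 in PC3-Epi, 6.66 in PC3-EMT14-OVOL1 and 7.32 in PC3-EMT14-OVOL2. For both genes the highest value was in PC3-EMT14-OVOL2, with no ratio against PC3-EMT14 past 2-fold. MERTK, the remaining TAM receptor, was under 1 FPKM in all 4 lines (0.766 in PC3-EMT14 and 0.362 in PC3-Epi). PROS1, protein S, which is a ligand of TYRO3 and MERTK, was the only 1 of the 5 genes of the TAM list past the threshold with at least 1 FPKM. It had 10.7 FPKM in PC3-EMT14 and 3.89 in PC3-Epi (log2 ratio -1.45), 5.18 in PC3-EMT14-OVOL1 (-1.01) and 5.33 in PC3-EMT14-OVOL2 (-0.95), so the value with OVOL2 fell just short of 2-fold.

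DDR1 (chr6:30851861-30867933) was higher in PC3-Epi than in PC3-EMT14, the reverse of AXL. Its pooled FPKM was 19.4 in PC3-EMT14 and 46.3 in PC3-Epi, a log2 ratio of 1.25, and it was the only member past 2-fold upward in any comparison. It stood at 20.4 in PC3-EMT14-OVOL1 against 19.0 in PC3-EMT14 of that table (log2 ratio 0.10) and at 26.0 in PC3-EMT14-OVOL2 against 18.8 (0.47). The level in PC3-EMT14-OVOL1 was therefore close to that of PC3-EMT14, and the level in PC3-EMT14-OVOL2 lay between the mesenchymal and the epithelial line. On the FPKM scale AXL was 2.41 times DDR1 in PC3-EMT14, 2.0 times in PC3-EMT14-OVOL1, 1.58 times in PC3-EMT14-OVOL2 and 0.632 times in PC3-Epi. The order of these receptors was thus turned round only in PC3-Epi among the 4 lines.

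DDR2 (chr1:162602228-162750247) was close to absent in every line. It had 0.117 FPKM in PC3-EMT14, 0.0626 in PC3-Epi, 0.102 in PC3-EMT14-OVOL1 and 0.137 in PC3-EMT14-OVOL2, and its ratios are those of values near 0. Among the collagen genes listed with the receptors that reached 1 FPKM, COL2A1, a cartilage collagen, was higher in PC3-Epi (1.56 against 0.174 FPKM). COL5A1, a fibril-forming collagen, was lower in PC3-Epi (0.357 against 3.74 FPKM) and in PC3-EMT14-OVOL2 (1.40 against 3.62). In PC3-EMT14-OVOL1 it had 1.87 against 3.66 FPKM, just short of 2-fold. The basement membrane collagen COL4A2 was the most abundant collagen of the list in PC3-EMT14 with 17.4 FPKM, and COL5A2 was the most abundant in PC3-Epi with 17.1.

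KDR (chr4:55944426-55991762) showed the widest range of the 9. Its pooled FPKM was 16.1 in PC3-EMT14 and 0.156 in PC3-Epi, a 103-fold lower level. The size of this ratio rests on a PC3-Epi value near 0. A pseudocount of 1 FPKM moved its log2 from -6.69 to -3.89, still past 2-fold. It was 7.26 in PC3-EMT14-OVOL1 against 15.7 in PC3-EMT14 of that table, 2.17-fold lower, and 3.68 in PC3-EMT14-OVOL2 against 15.6, 4.24-fold lower. KDR was thus highest in PC3-EMT14, lower with OVOL1, lower again with OVOL2 and lowest in PC3-Epi, and even the lower OVOL line had a level far above PC3-Epi. In the table of the 2 OVOL lines it had 3.68 against 7.19 FPKM, a 1.95-fold difference just inside the threshold. Its rank among the 57 receptor tyrosine kinases was 9 in PC3-EMT14, 15 in PC3-EMT14-OVOL1, 20 in PC3-EMT14-OVOL2 and 30 in PC3-Epi.

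The place of KDR among all genes can be given as a description. Of 12441 genes, 73 lay lower than KDR in PC3-Epi against PC3-EMT14. With OVOL1 and with OVOL2 it was 169 of 12197 and 94 of 12307 genes. These counts include genes listed at 0 in the line compared, which have no log2 ratio. Among genes with a log2 ratio, 0.15%, 1.07% and 0.40% had a lower one in PC3-Epi, with OVOL1 and with OVOL2. Of the genes that reached 1 FPKM on the list of 10 VEGF receptors, ligands and co-receptors, none besides KDR passed 2-fold in any comparison. FLT1 and FLT4, the other VEGF receptors, were under 0.05 FPKM in all 4 lines, where a ratio past 2-fold did not count. The ligands were expressed throughout. VEGFA, the principal KDR ligand, had 15.4 FPKM in PC3-EMT14, 23.9 in PC3-Epi, 19.4 in PC3-EMT14-OVOL1 and 23.3 in PC3-EMT14-OVOL2. VEGFC had 38.9 FPKM in PC3-EMT14, 29.6 in PC3-Epi, 32.6 in PC3-EMT14-OVOL1 and 32.1 in PC3-EMT14-OVOL2. The co-receptor NRP1 lay between 169 and 200.1 FPKM in the 4 lines.

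TIE1 (chr1:43766664-43788779) lay near the limit of 1 FPKM. Its pooled FPKM was 1.43 in PC3-EMT14 and 0.101 in PC3-Epi, 14.2-fold lower. It was 0.310 in PC3-EMT14-OVOL1 against 1.40 in PC3-EMT14 of that table (4.53-fold lower) and 0.152 in PC3-EMT14-OVOL2 against 1.39 (9.13-fold lower). The order of the lines was that of KDR, but here PC3-EMT14-OVOL2, at a log2 ratio of -3.19, was near PC3-Epi at -3.83. A pseudocount of 1 FPKM moved the log2 ratios to -1.14, -0.87 and -1.05, so TIE1 was no longer past 2-fold with OVOL1. TEK, the angiopoietin receptor that TIE1 joins, had 0.116 FPKM in PC3-EMT14 and at most 0.0730 in the other lines, and the angiopoietin ANGPT1 had 0.659 in PC3-EMT14 and 0.0384 in PC3-Epi. TIE1 was the only gene of the 5 on the list of TIE receptors and angiopoietins to reach 1 FPKM.

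PDGFC (chr4:157682763-157892546) had 5.80 FPKM in PC3-EMT14 and 11.2 in PC3-Epi, a 1.93-fold difference just short of the threshold. It stood at 6.22 in PC3-EMT14-OVOL1 (log2 ratio 0.13) and 6.19 in PC3-EMT14-OVOL2 (0.14), close to PC3-EMT14. PDGFRB (chr5:149493402-149535422) was the least abundant member, with 0.0702 FPKM in PC3-EMT14, 0.0439 in PC3-Epi, 0.0818 in PC3-EMT14-OVOL1 and 0.117 in PC3-EMT14-OVOL2. In this family only ligands were above 1 FPKM. PDGFRA, the receptor that PDGFC binds best, was at 0.400 FPKM in PC3-EMT14 and between 0.0537 and 0.0664 in the others. PDGFB, the ligand of both receptors, was the only gene of the 6 past 2-fold with at least 1 FPKM, at 26.0 FPKM in PC3-EMT14-OVOL1 against 12.9 in PC3-EMT14. It had 16.7 in PC3-EMT14-OVOL2 and 20.1 in PC3-Epi.

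**Figure D2:**
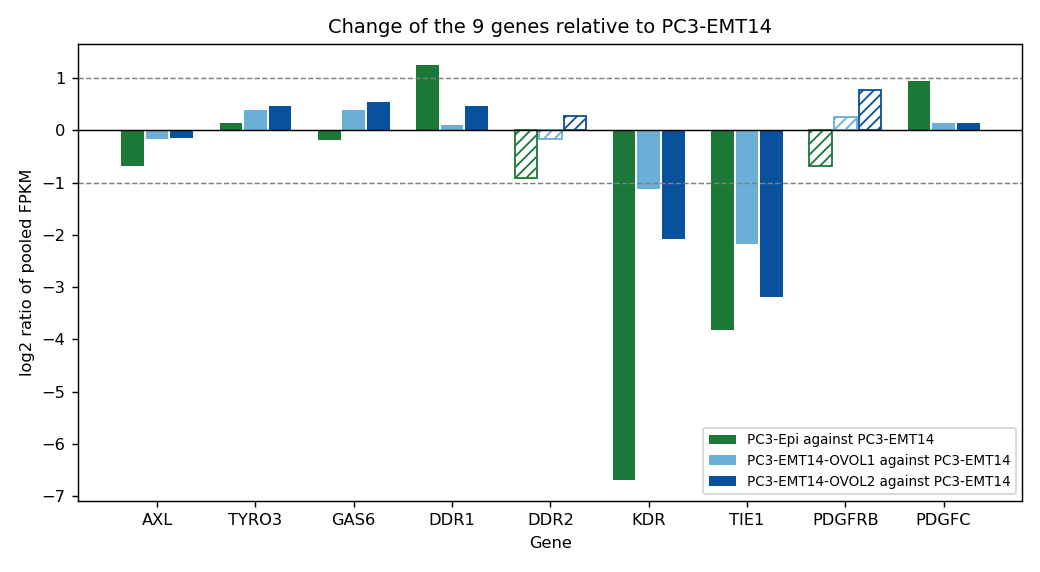
log2 ratio of pooled FPKM against PC3-EMT14 for the 9 genes, 1 bar per comparison and no error bar because there is 1 value per group; dashed lines mark 2-fold and hatched bars are genes under 1 FPKM in both groups. The bars of KDR (-6.69, -1.12 and -2.08) and TIE1 (-3.83, -2.18 and -3.19) pass the lower line in all 3 comparisons, and DDR1 passes the upper line in PC3-Epi at 1.25.

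To place the members among their relatives, the same 57 human receptor tyrosine kinases were examined. In PC3-Epi 29 of them reached 1 FPKM in at least 1 line, of which 4 were higher than in PC3-EMT14 (ERBB3, IGF1R, EPHA1 and DDR1) and 5 lower (KDR, FGFR1, TIE1, EPHA4 and EPHA5). With OVOL1, EPHA1 was higher and KDR, TIE1, EPHA4 and EPHA5 were lower, of 27. With OVOL2, EGFR, ERBB3 and EPHA1 were higher and KDR, FGFR1, TIE1, EPHA4 and EPHA5 were lower, of 27. Over all genes the shares were 7.37% and 8.34% in PC3-Epi, 2.43% and 1.54% with OVOL1, and 4.42% and 2.93% with OVOL2. The ephrin receptors EPHA4 and EPHA5 were lower in all 3 comparisons as KDR and TIE1 were. Like TIE1 they reached 1 FPKM only in PC3-EMT14, whose libraries all 3 comparisons share, and so could only be counted as lower. EPHA1 was in the reverse position, with 0.168 FPKM in PC3-EMT14, and could only be counted as higher in these comparisons. The same holds for IGF1R in PC3-Epi, with 0.582 FPKM in PC3-EMT14 and 1.51 in PC3-Epi. EPHA2, the most abundant receptor of the list, had 143 FPKM in PC3-EMT14 and 107 in PC3-Epi. The hepatocyte growth factor receptor MET, second in PC3-EMT14, had 59.1 and 64.7. TYRO3 and AXL sat inside the threshold with the bulk of the list.

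**Figure D3:**
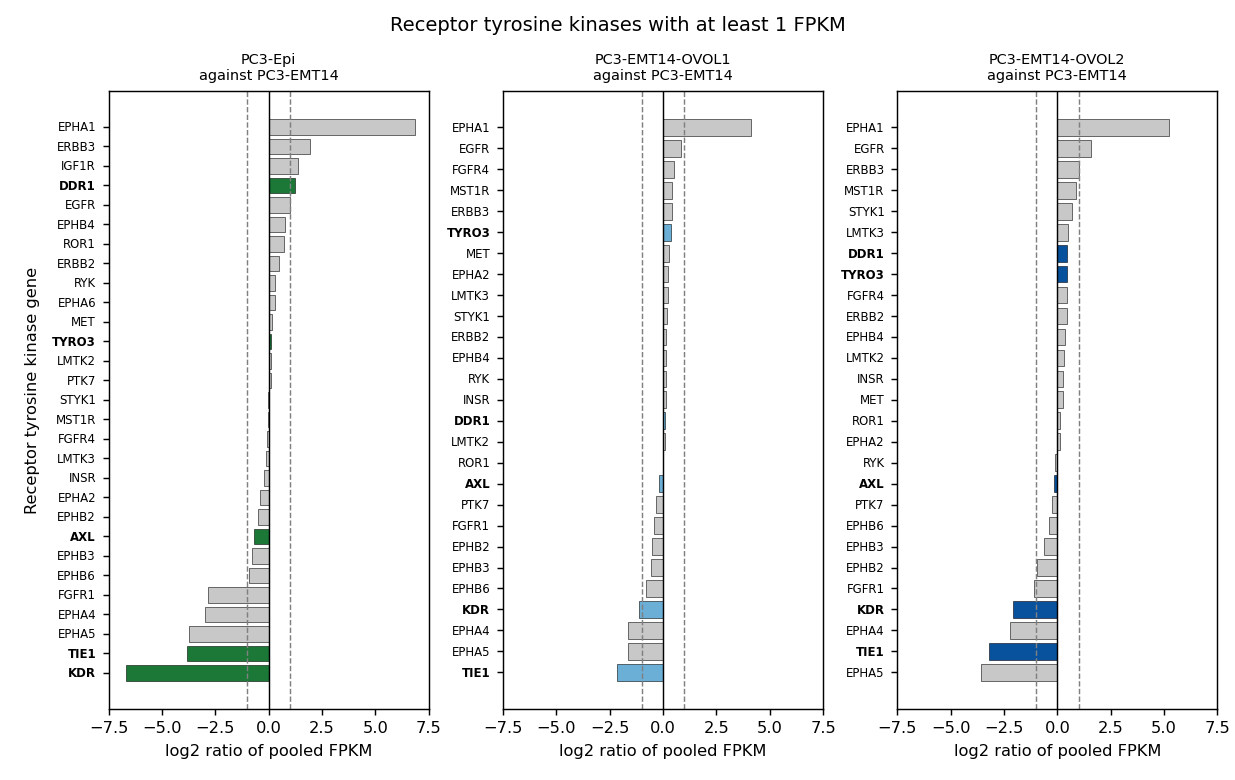
log2 ratio of pooled FPKM against PC3-EMT14 (horizontal axis) for the listed receptor tyrosine kinases with at least 1 FPKM in 1 of the groups compared, sorted by ratio, with members coloured and in bold and dashed lines at 2-fold. KDR is the lowest of 29 in PC3-Epi at -6.69 and TIE1 the lowest of 27 in PC3-EMT14-OVOL1 at -2.18, while DDR1 lies among the highest 4 only in PC3-Epi.

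The isoform tables divided a gene's signal among its transcripts, which were given by identifiers only and not by structure. TYRO3, TIE1, KDR and PDGFRB had 1 isoform each. DDR1 had 3, and their shares of the summed FPKM differed between PC3-EMT14 and the other lines. TCONS_00028031 held 67.2% in PC3-EMT14, 52.1% in PC3-Epi, 48.2% in PC3-EMT14-OVOL1 and 50.7% in PC3-EMT14-OVOL2. TCONS_00028032 held 9.42% in PC3-EMT14, 20.2% in PC3-Epi, 24.3% in PC3-EMT14-OVOL1 and 20.9% in PC3-EMT14-OVOL2. In this measure both OVOL lines stood with PC3-Epi, although in total DDR1 level they stood nearer to PC3-EMT14. In PC3-EMT14-OVOL1, where total DDR1 had a log2 ratio of 0.10, TCONS_00028032 had 4.94 FPKM against 1.79 and TCONS_00028031 had 9.81 against 12.8.

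A change of at least 10 percentage points in an isoform share was common among genes with several isoforms and at least 1 FPKM in both groups. It was seen in 19.3% of 4603 genes in PC3-Epi against PC3-EMT14, in 10.9% of 4708 genes with OVOL1, in 17.2% of 4706 genes with OVOL2 and in 13.7% of 4738 genes between the OVOL lines. DDR1 was among these genes in each comparison with PC3-EMT14 but not between the OVOL lines. The comparisons with PC3-EMT14 rest on the same PC3-EMT14 libraries, so the repeated DDR1 shift is not independent. The splicing regulator ESRP1 had 0.415 FPKM in PC3-EMT14, 84.6 in PC3-Epi, 15.2 in PC3-EMT14-OVOL1 and 11.7 in PC3-EMT14-OVOL2, and its part in the DDR1 shares was not tested. The main AXL isoform, TCONS_00016713, held 66.5% in PC3-EMT14, 58.1% in PC3-Epi, 70.3% in PC3-EMT14-OVOL1 and 65.9% in PC3-EMT14-OVOL2. The smaller PDGFC isoform, TCONS_00026150, held 19.0%, 26.1%, 13.2% and 19.5% in the same order. Neither gene moved by 10 points against PC3-EMT14, nor did GAS6, whose main isoform TCONS_00009675 held 90.6% in PC3-EMT14, 88.1% in PC3-Epi, 89.5% in PC3-EMT14-OVOL1 and 84.8% in PC3-EMT14-OVOL2.

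**Figure D4:**
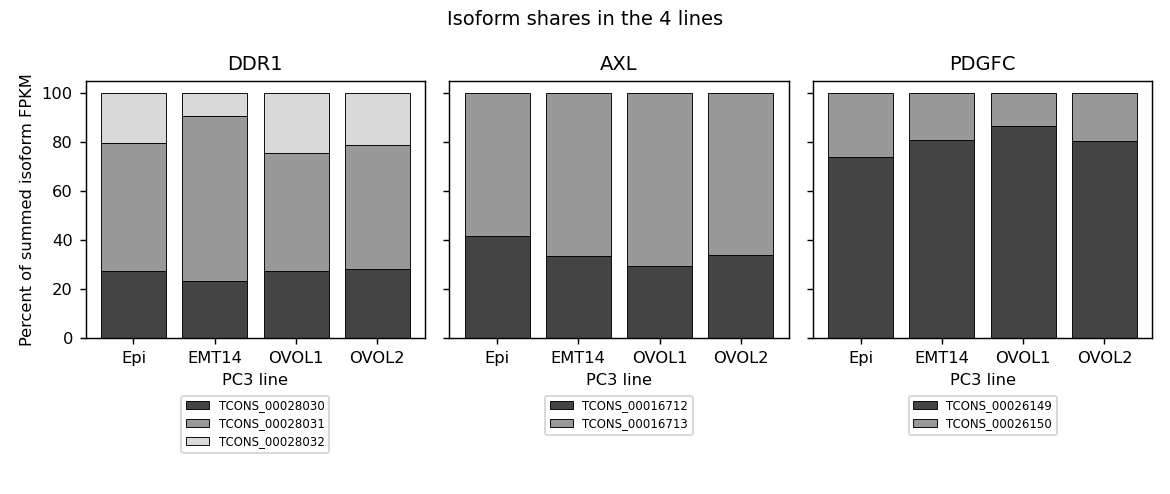
Percent of the summed isoform FPKM held by each transcript of DDR1, AXL and PDGFC in the 4 lines, stacked to 100, from 1 pooled value per group. The palest DDR1 segment (TCONS_00028032) is 9.42% in PC3-EMT14 and between 20.2% and 24.3% in the other lines, all set against the same PC3-EMT14 libraries.

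For each member above 1 FPKM, the genes with the most similar set of 3 log2 ratios against PC3-EMT14 were sought among 11981 others, by the root mean square difference over the 3 ratios. For AXL these were EXT2 and NBR1 (0.014 and 0.022), for DDR1 PLIN4 and HNRNPA3P1 (0.018 and 0.023), and for PDGFC SLC29A1 and NASP (0.017 and 0.018). For TYRO3 they were WNK2 and CCNO (0.029 and 0.034), and for GAS6 HAUS7 and DDIT4 (0.038 and 0.039). The large negative ratios had few close matches. The nearest to TIE1 were CYP2B6 (0.23) and LOC100144602 (0.36), and the nearest to KDR were HSD17B2 (0.31) and MLC1 (0.32). Neither KDR nor TIE1 was among the 2 genes nearest to the other.

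Because the vascular receptors are typical of endothelium, markers of other cell types were examined. Of 10 endothelial markers, 3 reached 1 FPKM (PECAM1, ESAM and ROBO4), 4 were under 0.1 FPKM in both groups of each comparison with PC3-EMT14, and EMCN was at 0 in every table. CDH5 and VWF were at 0.0222 and 0.0152 FPKM in PC3-EMT14, where PECAM1, ROBO4 and ESAM had 7.01, 10.3 and 4.30. The summed FPKM of the 10 markers was 22.1 in PC3-EMT14 and 8.06 in PC3-Epi, 21.6 and 17.2 with OVOL1, and 21.4 and 19.9 with OVOL2. PECAM1 (7.01 FPKM in PC3-EMT14 against 3.47 in PC3-Epi) and ROBO4 (10.3 against 1.75) were lower in PC3-Epi, where 8.34% of all genes were. PECAM1 was just past the threshold at a log2 ratio of -1.01. ESAM stayed within it, with 2.66 FPKM in PC3-Epi (-0.69). Neither PECAM1 nor ROBO4 passed 2-fold with OVOL1 or OVOL2. The part of endothelial genes in the KDR and TIE1 values was not tested.

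Of 10 pericyte and fibroblast markers, the summed FPKM was 8.23 in PC3-EMT14 and 3.39 in PC3-Epi, 8.06 and 6.14 with OVOL1, and 7.97 and 8.12 with OVOL2. COL1A1, CSPG4 and ACTA2 reached 1 FPKM in PC3-EMT14, and CSPG4 and ACTA2 were lower in PC3-Epi, where 8.34% of all genes were. This list shares PDGFRA with the PDGF genes, and the endothelial list shares TEK with the TIE genes. Since PC3-EMT14 came from a co-culture with macrophages, 14 macrophage markers were also read, and 13 of them were under 0.1 FPKM in both groups of every comparison, with C1QA, C1QB and C1QC at 0. The exception was CD68, which many cell types express, at 54.1 FPKM in PC3-EMT14 and 13.2 in PC3-Epi. It made up most of the summed FPKM of the list, which was 54.4 and 13.5 in these lines, 53.3 and 51.4 in PC3-EMT14 and its OVOL1 line, and 52.7 and 58.2 in PC3-EMT14 and its OVOL2 line. The leukocyte marker PTPRC was at 0.0161 and CD14 at 0.0861 FPKM in PC3-EMT14.

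Genes lying within 200 kb of each member were read as well, a choice made after their values were seen. Of 66 such gene entries 43 reached 1 FPKM in the comparison of PC3-Epi with PC3-EMT14, of which 3 were higher and 4 lower, near the 7.37% and 8.34% over all genes. With OVOL1 and with OVOL2, 42 reached 1 FPKM, of which 2 were higher and 0 lower, against 2.43% and 1.54% of all genes with OVOL1 and 4.42% and 2.93% with OVOL2. Both of these lie upstream of TIE1 on chromosome 1. C1orf210, 15375 bases from TIE1, had 0.0351 FPKM in PC3-EMT14, 14.0 in PC3-Epi, 1.49 in PC3-EMT14-OVOL1 and 4.84 in PC3-EMT14-OVOL2. TMEM125, 26990 bases away, had 0.158, 11.6, 1.13 and 3.00 FPKM in the same order. The order of the lines for these neighbours was the reverse of that for TIE1, and none of the other neighbours of TIE1 at or above 1 FPKM passed 2-fold. C1orf210 and TMEM125 were under 1 FPKM in PC3-EMT14, so they could only be counted as higher. TIE1 was under 1 FPKM in the other lines and could only be counted as lower. The opposite directions are therefore partly set by the floor and by the PC3-EMT14 libraries that the comparisons share. KDR had no gene entry within 200 kb.

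**Figure D5:**
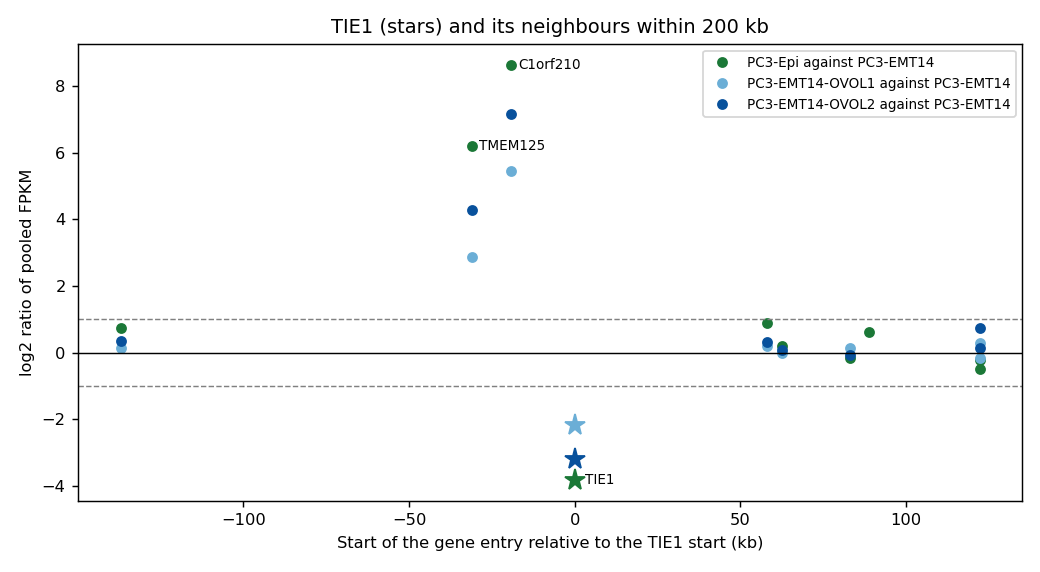
log2 ratio of pooled FPKM against PC3-EMT14 for TIE1 (stars) and the genes within 200 kb that reached 1 FPKM (points), against the distance of their start from that of TIE1 in kb, with dashed lines at 2-fold. C1orf210 (8.65, 5.44 and 7.16) and TMEM125 (6.2, 2.87 and 4.30) lie above the upper line where TIE1 lies below the lower. These neighbours were under 1 FPKM in PC3-EMT14 and TIE1 was under 1 FPKM in the other lines, so each could pass on that side only.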

How the data were processed

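RNA from 10 samples of the 4 lines was sequenced by the study as paired 50-base reads on an Illumina HiSeq, aligned with TopHat to hg19 and quantified with Cuffdiff using upper-quartile scaling, bias correction and multi-read correction. The deposited values are FPKM per gene and per isoform, which the authors pooled into 1 value per group in each of 4 comparisons (8 tables), so the values carry no SD and no depth. The tables also hold the authors' fold changes, test statistics, p-values and q-values, none of which was used. Ratios were taken within a table with no pseudocount and counted at 2-fold with at least 1 FPKM in the higher group. FPKM of a member for the same line differed between tables by at most 1.03-fold. Levels named for PC3-EMT14 are from its comparison with PC3-Epi unless stated. PC3-EMT14 values set against an OVOL line, in paired marker sums, or in the OVOL1 and OVOL2 check are from that line's own comparison. Ranks and shares were computed with Python 3.11.15, pandas 2.3.3 and numpy 2.4.6, and the ratio code was tested on simulated data. Bases before genes were read from GRCh37 (hg19) with strand from GENCODE, for 14772 of 17724 entries with 1 symbol and a locus of their own. Named genes were the 9 members, the other genes of their family lists, the 2 genes of nearest pattern to each member, markers above 1 FPKM, and OVOL1 and OVOL2. Receptors of the wider list, markers under 1 FPKM, and neighbours were named after their values were seen. 1 receptor of the wider list is not reported here. The members and lists were chosen with earlier results of these data known.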

Additional observations from a re-analysis of the deposited data

How the results depend on the processing

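Centring on the median gene and, between the OVOL lines, taking the difference of the 2 ratios against PC3-EMT14 turned the sign of 0 of 45 member log2 ratios. A pseudocount cannot turn a sign, and summed isoforms gave the gene values again. The number of members past the threshold was 3 in PC3-Epi and became 5 at 1.5-fold, with AXL and PDGFC added, and 2 with a floor of 5 FPKM (TIE1 lost) or at 4-fold (DDR1 lost). It was 2 with OVOL1 and became 1 with a floor of 5 FPKM or a pseudocount of 1 FPKM (KDR left) and 1 at 4-fold (TIE1 left). It was 2 with OVOL2 and became 1 with a floor of 5 FPKM (KDR left). Between the OVOL lines it was 0 and became 1 with no floor (TIE1) or at 1.5-fold (KDR). With a pseudocount of 1 FPKM the median log2 ratio of the 9 members moved to -0.072 in PC3-Epi, 0.018 with OVOL1 and 0.064 with OVOL2, and with 0.1 FPKM to -0.24 in PC3-Epi and 0.15 with OVOL2, since a pseudocount shrinks the ratios of genes listed near 0. The other recomputed counts and medians stayed within 1.5 times, or within the difference between repeated tables. No paired analysis was possible because the tables give 1 pooled value per group, and for the same reason no sample could be left out in turn. The precision of the members under 1 FPKM is limited by a depth that is unknown.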
